A study of Bos taurus with 28 samples.

Results

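GDF10 and INHA are 2 genes of the transforming growth factor beta (TGF-beta) family, and their read counts were followed through the endometrium, the lining of the uterus, of 28 heifers. They are 2 of the 24596 gene IDs counted per heifer, ENSBTAG00000001019 for GDF10 and ENSBTAG00000009972 for INHA. They were chosen by their gene names. The study's results for semen of high-fertility bulls relative to control heifers had drawn attention to both. Their names stand in a list ordered by the difference between low-fertility semen and control heifers. Their levels relative to control heifers are therefore given as a description, without a test.

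The treated heifers were inseminated with frozen-thawed semen, from 5 Holstein-Friesian bulls of high field fertility (HF, n = 10) or from 5 of low field fertility (LF, n = 10), with 2 heifers per bull. Control heifers were not inseminated (CTRL, n = 8), so they met neither sperm, nor semen extender, nor the passage of an insemination gun. Every heifer, CTRL included, had its oestrous cycle synchronised with an intravaginal progesterone device, gonadotrophin-releasing hormone and prostaglandin F2 alpha. One biopsy per heifer was taken post-mortem, 12 h after insemination, from the intercaruncular endometrium, the glandular part between the sites where a placenta attaches. The work was run in 2 study replicates with different heifers, and the 2 heifers of a bull fell in different study replicates. The sample labels name the heifers as Holstein-Friesian, whereas the study's list of animals gives crosses of beef breeds, of which Limousin (4 HF, 3 LF, 4 CTRL) and Charolais (4 HF, 5 LF, 1 CTRL) were the most frequent. The others were crosses of Belgian Blue (2 HF), Aberdeen Angus (1 LF, 1 CTRL), Simmental (1 LF, 1 CTRL) and Saler (1 CTRL), so breeds were not spread evenly over treatments. The labels give no ages.

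Ligands of the TGF-beta family are secreted as dimers. They bring together type I and type II serine/threonine kinase receptors on the target cell, which phosphorylate SMAD proteins that then enter the nucleus and regulate genes. GDF10, also called bone morphogenetic protein 3b, is a secreted ligand related to BMP3. INHA encodes the alpha subunit of the inhibins. It pairs with a beta subunit, encoded by INHBA or INHBB, to form inhibin A or B, whereas beta subunits paired with each other form activins. Inhibins oppose activins at their receptors and are best known as ovarian hormones that lower the release of follicle-stimulating hormone by the pituitary. In the RefSeq annotation of the bovine assembly ARS-UCD2.0, GDF10 lies between the protein-coding genes GDF2 and PTPN20, and INHA between OBSL1 and STK11IP. Neither overlaps another protein-coding gene there. The counts were made on another assembly, ARS-UCD1.2, so no positions are given.

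Total counts per heifer were between 14872812 and 25633259, with a median of 19149694 in CTRL, 19794372 in HF and 18965105 in LF. No pair of heifers within a treatment had counts alike enough to be the same library. Levels are given as CPM, read counts scaled to a common library size, adjusted between heifers by the trimmed mean of M-values, and they compare heifers for the same gene only, because they are not divided by gene length. Both genes were low in this tissue. GDF10 had 7 to 158 reads per heifer, and INHA had 15 to 69. In a whole biopsy, a lower level can come from fewer cells that express a gene or from less RNA per cell, and the 2 cannot be told apart.

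GDF10 was higher on average in both inseminated groups than in CTRL, and it differed widely between heifers of the same treatment. In CTRL, it ranged from 0.374 CPM in heifer CTRL3 through a median of 1.10 to 1.82 CPM in CTRL2, with a mean of 1.03 ± 0.531 CPM (SD, n = 8). In HF, it ranged from 0.907 CPM in HF1 through a median of 2.602 to 8.32 CPM in HF9, with a mean of 3.29 ± 2.39 CPM (SD, n = 10). In LF, it ranged from 0.506 CPM in LF2 through a median of 1.79 to 8.73 CPM in LF8, with a mean of 2.62 ± 2.40 CPM (SD, n = 10). The treatments overlapped: 6 of 10 HF heifers and 5 of 10 LF heifers lay above the highest CTRL heifer, while 9 of 10 in each group lay above the CTRL median.

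In the fitted model, the level of GDF10 relative to CTRL was 3.17-fold in HF (log2 difference 1.66, SE 0.45) and 2.53-fold in LF (1.34, SE 0.47). Both values use the same CTRL heifers. Heifer LF8 carried a large part of the second one, since the LF difference was 0.91 on the log2 scale without it, against 1.34 with it. The HF difference was 1.40 without HF9, the highest HF heifer.

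INHA was also higher on average in both inseminated groups, by a smaller fold and with a smaller spread. In CTRL, it ranged from 0.873 CPM in CTRL1 through a median of 1.26 to 2.49 CPM in CTRL7, with a mean of 1.45 ± 0.614 CPM (SD, n = 8). In HF, it ranged from 1.71 CPM in HF7 through a median of 2.65 to 3.65 CPM in HF9, with a mean of 2.64 ± 0.653 CPM (SD, n = 10). In LF, it ranged from 1.61 CPM in LF2 through a median of 1.96 to 3.84 CPM in LF7, with a mean of 2.18 ± 0.740 CPM (SD, n = 10). All 10 HF and all 10 LF heifers lay above the CTRL median, yet only 6 HF and 2 LF heifers exceeded the highest CTRL heifer. The fitted level relative to CTRL was 1.82-fold in HF (log2 difference 0.86, SE 0.24) and 1.50-fold in LF (0.59, SE 0.26). Without LF7, the highest LF heifer, the LF difference was 0.46.

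**Figure D1:**
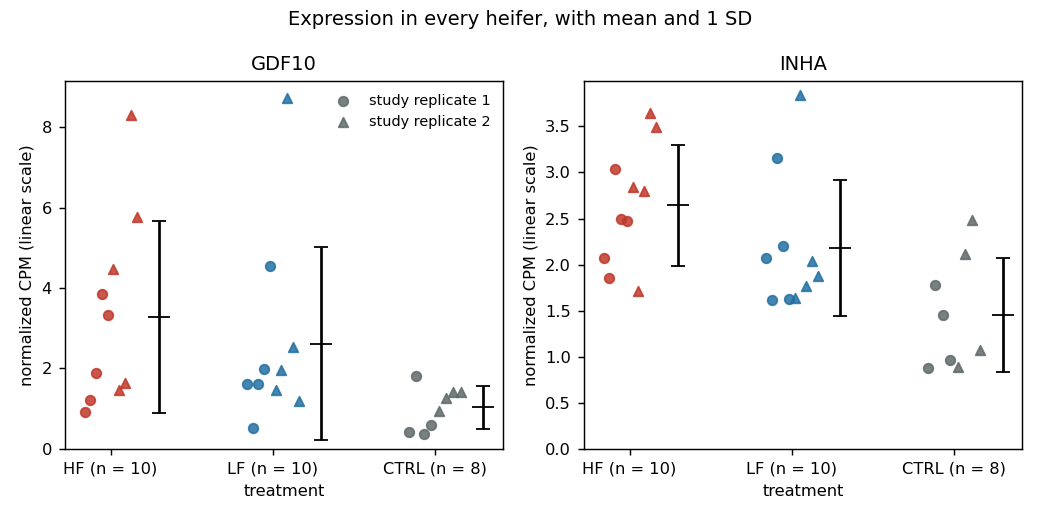
Normalised CPM of GDF10 (left) and INHA (right) in each heifer on linear axes, by treatment, with circles for study replicate 1 and triangles for study replicate 2; the black mark and bar beside each group are the mean and 1 SD. The HF and LF points of GDF10 reach 8.32 and 8.73 CPM while no CTRL heifer passes 1.82 CPM, and the INHA points of the 3 treatments lie closer together.

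For both genes, the order of the group means was HF, LF and CTRL, and HF and LF, neighbours in that order, did not differ beyond the spread between heifers. This comparison was not one of those that chose the genes, although the same HF and LF heifers entered those choices. For GDF10, 6 of 10 HF heifers lay above the LF median and none above the highest LF heifer. The log2 difference between HF and LF was 0.31 (SE 0.46), with an adjusted p of 0.945 by the quasi-likelihood test of edgeR, Benjamini-Hochberg adjusted over 14793 genes. The 95% interval of the fold, from DESeq2, ran from 0.675 to 2.28. For INHA, 8 of 10 HF heifers lay above the LF median and none above the highest LF heifer. The log2 difference was 0.27 (SE 0.20), with an adjusted p of 0.780 by edgeR, and the interval of the fold ran from 0.922 to 1.56. Neither interval leaves out equal levels, and that of GDF10 also holds a doubling. These fits treat the heifers as independent, although fertility is a trait of the bull and 2 heifers shared each bull. With the counts of a bull summed, the log2 difference was 0.35 for GDF10 (adjusted p = 0.853 by edgeR). It was 0.29 for INHA (adjusted p = 0.679 by edgeR).

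As background, edgeR called 0 of 14793 genes between HF and LF (0%), and 1171 (7.92%) had an unadjusted p under 0.05, while DESeq2 called 27 of 16998 (0.159%). Neither GDF10 nor INHA was among the genes at an unadjusted p under 0.05. Single heifers set the size of the GDF10 difference: it was 0.05 on the log2 scale without HF9 and 0.75 without LF8. For INHA, the lowest and highest values with 1 heifer left out were 0.21 without HF9 and 0.39 without LF7.

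GDF10 varied more between heifers than INHA in every treatment. The coefficient of variation of GDF10 was 72.6% in HF, 91.6% in LF and 51.6% in CTRL, where counting error alone at these read numbers would give 12.6%, 14.3% and 22.5%. That of INHA was 24.7% in HF, 33.9% in LF and 42.3% in CTRL, with 13.9%, 15.4% and 19.2% from counting. The biological coefficient of variation that edgeR fitted between HF and LF was 0.689 for GDF10 and 0.293 for INHA, beside a median of 0.459 over 999 genes of like level. No test was made of the difference in spread between the genes.

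Heifers that received semen of the same bull were compared next, to ask whether they shared a level. Among HF bulls, GDF10 in the heifers of study replicates 1 and 2 was 3.86 and 8.32 CPM for Bull 9, and 3.33 and 5.77 CPM for Bull 10, both heifers of each bull lying above every CTRL heifer. It was 0.907 and 4.49 CPM for Bull 6. For Bull 7 it was 1.21 and 1.47 CPM, and for Bull 8 it was 1.88 and 1.64 CPM. Among LF bulls, pairs ran in both directions. GDF10 was 1.62 and 8.73 CPM in the heifers of Bull 3, the second at 5.37 times the first, and 4.55 and 1.196 CPM in those of Bull 5, where the second heifer was at 0.263 of the first. It was 0.506 and 1.95 CPM for Bull 2, and 1.62 and 1.46 CPM for Bull 1. For Bull 4 it was 1.99 and 2.55 CPM, so both heifers of this LF bull also lay above every CTRL heifer.

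In INHA, the second heifer of a bull stood between 0.560 and 2.38 times the first, against 0.263 to 5.37 times for GDF10. INHA varied less between heifers of every treatment, so the narrower ratios do not show a closer likeness within a bull. The pairs were 2.49 and 3.65 CPM for Bull 9, 2.47 and 3.49 CPM for Bull 10, and 2.07 and 2.84 CPM for Bull 6, the second heifer being the higher one in each. Bull 7 (1.85 and 1.71 CPM) and Bull 8 (3.04 and 2.80 CPM) had heifers closer to each other. Among LF bulls, Bull 2 (1.61 and 3.84 CPM) and Bull 3 (3.16 and 1.77 CPM) had the widest pairs, in opposite directions. The other LF pairs were 2.07 and 1.64 CPM for Bull 1, 2.20 and 2.04 CPM for Bull 4, and 1.63 and 1.88 CPM for Bull 5.

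Over the 10 bulls, after each heifer was centred on the mean of its treatment and study replicate, the 2 heifers of a bull were not detectably alike. For GDF10, Pearson's r was 0.15 (p = 0.676) and Spearman's rho 0.30 (p = 0.425), both by a 2-sided exact permutation over 14400 arrangements. Adjusted over both genes, these were 0.818 and 0.850. For INHA, r was −0.09 (p = 0.818) and rho −0.07 (p = 0.871) by the same exact permutation test, with adjusted values of 0.818 and 0.871. Leaving out the 2 bulls farthest from the median gave r = 0.43 for GDF10 (exact permutation p = 0.304, without Bulls 2 and 5) and r = 0.54 for INHA (exact permutation p = 0.204, without Bulls 2 and 3), so the sign for INHA rests on those bulls.

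**Figure D2:**
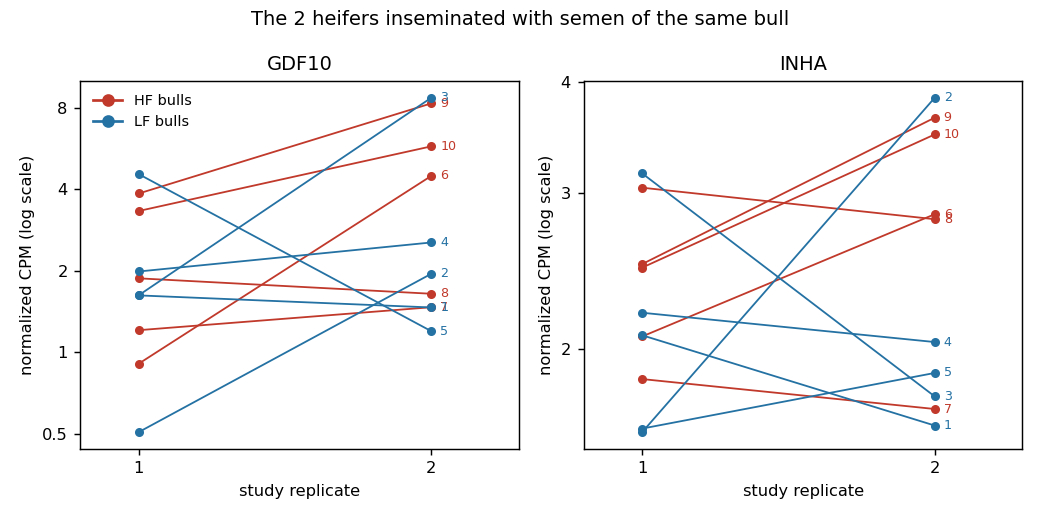
Normalised CPM of GDF10 (left) and INHA (right) on log axes in the 2 heifers inseminated with semen of the same bull, joined by a line and numbered by bull, HF bulls in red and LF bulls in blue. Lines cross in both panels: the second heifer was the higher one for 7 of 10 bulls in GDF10 and for 5 of 10 in INHA.

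Study replicate was examined because every treatment was split evenly between both. GDF10 was higher in study replicate 2 in each treatment. Its mean was 4.34 ± 2.89 CPM against 2.24 ± 1.30 CPM in HF (SD, n = 5 each), 3.18 ± 3.15 CPM against 2.06 ± 1.50 CPM in LF (SD, n = 5 each), and 1.26 ± 0.218 CPM against 0.800 ± 0.687 CPM in CTRL (SD, n = 4 each). Over 28 heifers with treatment in the model, the log2 difference was 0.75 (SE 0.35), with an unadjusted p of 0.0428 and an adjusted p of 0.999 by edgeR, so it did not pass the correction over 15163 genes. Without LF8, it was 0.49. The difference for INHA was 0.23 (SE 0.18), with an adjusted p of 0.999 by edgeR. Between study replicates, edgeR called 2 of 15163 genes (0.0132%), 508 (3.35%) had an unadjusted p under 0.05, and DESeq2 called 6 of 19407 (0.0309%).

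Within each study replicate, HF exceeded LF on average for both genes, by less than the spread between heifers. In mean log2 CPM, the difference of GDF10 was 0.20 in study replicate 1 and 0.53 in study replicate 2 (2-sided exact permutation p = 0.746 and 0.468, 5 against 5 heifers), beside 0.37 over all heifers. That of INHA was 0.18 and 0.39 (2-sided exact permutation p = 0.405 and 0.214), beside 0.28. The difference of the HF to LF contrast between study replicates had an adjusted p of 0.9998 by edgeR for GDF10 (log2 0.32, SE 0.89) and for INHA (log2 0.22, SE 0.40). Relative to CTRL, the HF difference in GDF10 was 1.43 in each study replicate, and the LF difference was 1.23 and 0.89, both as a description.

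Limousin and Charolais crosses did not differ beyond their spread in either gene. The log2 difference, Limousin minus Charolais, was 0.33 for GDF10 (SE 0.47, adjusted p = 0.842 by edgeR) and −0.19 for INHA (SE 0.21, adjusted p = 0.836 by edgeR). For this comparison, edgeR called 0 of 15163 genes (0%), 823 (5.43%) had an unadjusted p under 0.05, and DESeq2 called 5 of 19408 (0.0258%). The HF to LF difference had another size in each breed. Among Limousin crosses, mean GDF10 was 4.58 CPM in 4 HF heifers and 1.42 CPM in 3 LF heifers, a log2 difference of 1.66 (2-sided exact permutation p = 0.114). Among Charolais crosses, it was 2.51 CPM in 4 HF and 2.24 CPM in 5 LF heifers, a log2 difference of −0.045 (2-sided exact permutation p = 0.905). For INHA, these differences were 0.64 and 0.09 (2-sided exact permutation p = 0.0571 and 0.810). With 4 against 3 heifers, 0.0571 is the smallest p that this exact permutation test can give, so it could not pass 0.05. That p arose because all 4 HF Limousin heifers lay above the 3 LF ones in INHA (lowest HF 2.49 CPM, highest LF 2.04 CPM). The separation therefore adds nothing to it. How many other genes separated these heifers was not counted. The test of the difference between breeds did not pass for GDF10 (log2 1.51, SE 0.93, adjusted p = 0.836 by edgeR) or INHA (log2 0.60, SE 0.47, adjusted p = 0.836 by edgeR). Relative to CTRL, as a description, GDF10 of LF heifers lay 0.12 above in mean log2 CPM among Limousin crosses (3 LF and 4 CTRL heifers, means of 1.42 and 1.16 CPM), beside 1.06 over all heifers, whereas that of HF heifers lay 1.78 above, beside 1.43. The 3 LF Limousin heifers did not include LF8, a Simmental cross. INHA of Limousin crosses lay 1.06 above CTRL in HF and 0.42 above in LF. The only Charolais CTRL heifer was CTRL7, the highest CTRL heifer in INHA, and beside it the Charolais means of INHA differed by −0.0032 in HF and −0.09 in LF. With breed as a covariate (Limousin, Charolais or other), the fitted log2 difference of INHA from CTRL was 0.78 in HF and 0.41 in LF. Without it, these were 0.86 and 0.59. For GDF10, they were 1.62 and 1.23 with it, beside 1.66 and 1.34.

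GDF10 and INHA were then compared with each other across heifers of the same treatment. With both centred on treatment means, r was 0.37 (permutation p = 0.0520) and rho 0.41 (permutation p = 0.0391) over 28 heifers. Neither passed the Benjamini-Hochberg adjustment over the 11 relations computed (0.307 and 0.430). Within study replicates, r was 0.36 and 0.28 (permutation p = 0.255 and 0.295, n = 14 each). Leaving out LF8 and LF2, the 2 heifers farthest from the median of GDF10, gave r = 0.44 (permutation p = 0.0245). Centred on treatment and study replicate, r was 0.31 (permutation p = 0.117), and on CPM without a log it was 0.26 (permutation p = 0.200).

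The relation was closest among HF heifers, where r was 0.78 (permutation p = 0.00950) and rho 0.82 (permutation p = 0.00576) over 10 heifers, and r was 0.67 without HF9 and HF1. The 2 heifers highest in GDF10, HF9 and HF10, were also the highest in INHA. Among LF heifers, r was −0.05 (permutation p = 0.881) and rho 0.15 (permutation p = 0.681). LF8, highest in GDF10 at 8.73 CPM, had 1.77 CPM of INHA, and LF7, highest in INHA at 3.84 CPM, had 1.95 CPM of GDF10. Among CTRL heifers, r was 0.53 and rho 0.50 (exact permutation p = 0.178 and 0.216, n = 8). Adjusted over these 3 and the other 11 relations, the HF values were 0.133 for r and 0.0806 for rho, so none passed. Whether r differed between treatments was not tested.

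**Figure D3:**
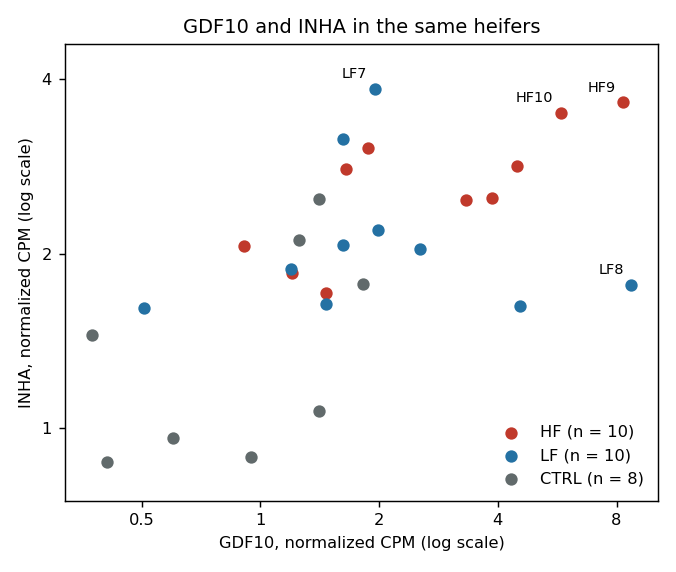
GDF10 (horizontal) and INHA (vertical) in normalised CPM on log axes, 1 point per heifer, coloured by treatment. HF9 and HF10 lie at the top right with the highest values of both genes in HF, whereas LF8 is high in GDF10 only and LF7 in INHA only.

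The tissue was checked by cell type markers, of which only 5 of 50 carried a name: KRT8 of epithelium, TPPP3 of ciliated epithelium, VIM of stromal cells, and ACTA2 and MYLK of smooth muscle. None of 6 markers of the endometrium and none of those of neutrophils, other leukocytes, endothelium or ovary could be looked up by name. Smooth muscle markers were higher in CTRL, where the mean log2 CPM of ACTA2 and MYLK was 9.88 ± 1.56 (range 8.01 to 11.4), against 8.76 ± 1.27 in HF (7.50 to 10.6) and 8.69 ± 1.32 in LF (7.01 to 10.6). Across heifers of a treatment, that mean had r = −0.01 with GDF10 (permutation p = 0.980) and r = 0.08 with INHA (permutation p = 0.706). With it as a covariate, the log2 difference of GDF10 relative to CTRL was 1.605 in HF and 1.27 in LF. Without it, these were 1.66 and 1.34. That of INHA was 0.93 in HF and 0.62 in LF, beside 0.86 and 0.59 without the covariate. The covariate rests on 2 of 8 listed smooth muscle markers. KRT8 was higher in LF (167 ± 37.4 CPM) than in HF (118 ± 33.2 CPM) or CTRL (112 ± 47.4 CPM), and it had r = −0.42 with INHA (rho −0.36, permutation p = 0.0558 and 0.0886, adjusted 0.307 and 0.488), or −0.26 without CTRL6 and CTRL5. VIM was 2617 ± 312 CPM in HF, 2405 CPM (range 1570 to 3201) in LF and 1981 ± 342 CPM in CTRL. TPPP3 was 390 ± 144 CPM in HF, 377 ± 145 CPM in LF and 226 ± 142 CPM in CTRL. The part of smooth muscle, KRT8, VIM and TPPP3 in the differences from CTRL was not tested.

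Of 89 genes listed for the TGF-beta pathway, 11 carried a name. These were 6 of 32 ligands, 2 of 16 receptors, 1 of 18 inhibitors, 2 of 12 SMADs and their regulators, and 0 of 11 target genes. Names came mostly from a list ordered by how strongly genes differed between LF and CTRL, so the 11 genes are not a fair sample of the pathway. The partners of INHA (INHBA, INHBB, TGFBR3, FST, ACVR2A and ACVR2B) and BMP3, the nearest relative of GDF10, carried no name, and whether the subunits needed for inhibin rose or fell with INHA was not analysed here.

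Between HF and LF, edgeR called 0 of the 11 genes, as of all genes (0%), and 8 lay above and 3 below equality. Without GDF10 and INHA, 6 of 9 lay above and 3 below, with a median log2 difference of 0.09, beside −0.03 and 43.2% above equality over all genes. Of the 11, 1 had an unadjusted p under 0.05 by edgeR, where 7.92% of all genes did, and 2 by DESeq2, where 1534 of 19238 did (7.97%). By edgeR that gene was TGFB3, and by DESeq2 they were TGFB3 and GDF6. TGFB3 is a ligand that in mammals takes part in tissue remodelling. TGFB3 ranged from 25.9 through a median of 76.1 to 175 CPM in HF, from 44.9 through 48.8 to 85.5 CPM in LF, and from 44.5 through 70.3 to 150 CPM in CTRL. Its log2 difference between HF and LF was 0.69 (SE 0.23, adjusted p = 0.468 by edgeR). The LF heifers lay close together except for the highest, and the groups overlapped.

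GDF6, a bone morphogenetic protein ligand, was 5.08 ± 4.39 CPM in HF and 2.49 ± 2.11 CPM in LF, a log2 difference of 1.01 (SE 0.50, adjusted p = 0.631 by edgeR), and 7.11 ± 7.55 CPM in CTRL. TGFB2, another ligand, was 26.6 ± 11.7 CPM in HF and 20.1 ± 7.58 CPM in LF, a log2 difference of 0.40 (SE 0.25, adjusted p = 0.729 by edgeR). MSTN, or myostatin, a ligand that restrains muscle growth, was 26.5 ± 14.0 CPM in HF and 27.99 ± 11.9 CPM in LF, a log2 difference of −0.09 (SE 0.32, adjusted p = 0.988 by edgeR). None of these ligands differed between HF and LF past the threshold.

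The other named genes of the pathway are receptors, an inhibitor and regulators of SMADs. BMPR2, a type II receptor for bone morphogenetic proteins, had a log2 difference between HF and LF of −0.21 (SE 0.24), and CD109, a co-receptor that limits TGF-beta signalling, one of 0.24 (SE 0.18). CHRD, or chordin, which binds bone morphogenetic proteins outside the cell and keeps them from their receptors, had 0.09 (SE 0.13). SMURF2, a ubiquitin ligase that targets receptors and SMADs for breakdown, had −0.04 (SE 0.14), and SKI, a repressor that binds SMADs, had 0.08 (SE 0.20). Their adjusted p-values by edgeR were between 0.779 and 0.987.

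As a description, the ligands were not alike relative to CTRL. The log2 difference was −0.69 in LF and 0.01 in HF for TGFB3, −1.51 and −0.49 for GDF6, −0.51 and −0.10 for TGFB2, and 0.55 and 0.47 for MSTN, beside 1.34 and 1.66 for GDF10 and 0.59 and 0.86 for INHA. CHRD lay above CTRL in LF (0.35) and HF (0.44), and SMURF2 (−0.39 and −0.43), SKI (−0.43 and −0.34), BMPR2 (−0.28 and −0.48) and CD109 (−0.54 and −0.28) lay below it. Among the 9 genes other than GDF10 and INHA, 3 lay above and 6 below CTRL in HF. Their median was −0.28, beside −0.02 and 46.4% above CTRL over all genes. In LF, 2 lay above and 7 below, with a median of −0.43, beside 0.01 and 51.8% above over all genes. Most names came from a list ordered by the difference between LF and CTRL, so these counts and medians do not describe the pathway as a whole.

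**Figure D4:**
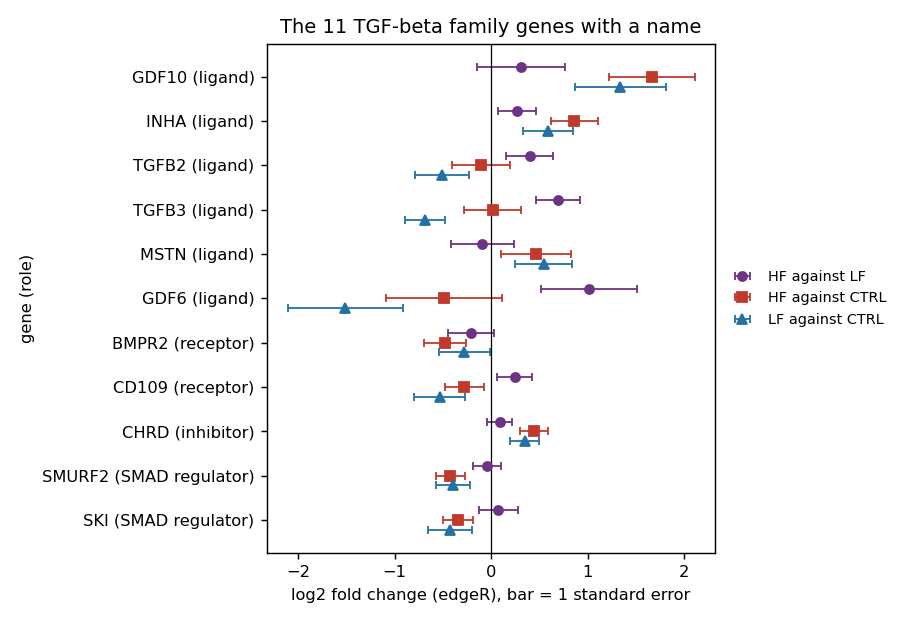
Log2 fold change with 1 standard error from edgeR for the 11 named genes of the TGF-beta pathway, for HF against LF (circles), HF against CTRL (squares) and LF against CTRL (triangles); the last 2 share the CTRL heifers. GDF10, INHA and CHRD are above 0 in all 3 comparisons, while TGFB3 and GDF6 lie furthest below 0 in LF against CTRL.

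The genes most like GDF10 and INHA were sought by the correlation of log2 CPM over 28 heifers, centred on treatment means, among 1512 genes with a name. The points share libraries and treatments, and genes with names were not chosen at random, so r is a description. For GDF10, the highest values were those of ANGPT4 (r = 0.67), an angiopoietin that acts on the TIE2 receptor of endothelium, CXXC5 (0.66), a zinc finger protein induced by bone morphogenetic proteins, EBI3 (0.64), a subunit of the cytokines IL-27 and IL-35, LHFP (0.64), and FOXL2 (0.62), a transcription factor of the ovary and uterus. The lowest were NFE2L1 (−0.61), a transcription factor of proteasome genes, PRKAA2 (−0.56), a catalytic subunit of AMP-activated kinase, and ADGRV1 (−0.55), an adhesion receptor. Over all 15162 other genes, with or without a name, the highest r with GDF10 was 0.75 and the lowest −0.74.

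For INHA, the highest values were those of NKIRAS1 (r = 0.80), which inhibits NF-kappa-B signalling, GLT8D2 (0.74), a glycosyltransferase, FBXO6 (0.73), which recognises glycoproteins for breakdown, SLC7A3 (0.72), a carrier of cationic amino acids, and C6orf163 (0.71). The lowest were RCC2 (−0.82), a regulator of chromosome segregation, BTG2 (−0.73), an anti-proliferative gene, and DUSP5 (−0.70), a phosphatase of the ERK kinases. Over all other genes, the highest r with INHA was 0.82 and the lowest −0.84. No gene was among the 5 highest or 3 lowest of both GDF10 and INHA.

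NKIRAS1 was 16.4 ± 2.54 CPM in HF, 13.1 ± 4.62 CPM in LF and 9.36 ± 3.09 CPM in CTRL, the same order of means as INHA. RCC2 had the opposite order, with 91.9 ± 7.92 CPM in HF, 113 ± 16.2 CPM in LF and 120 CPM (range 83.4 to 151) in CTRL. EBI3 was 3.27 ± 1.32 CPM in HF, 2.23 ± 1.14 CPM in LF and 1.55 ± 0.548 CPM in CTRL, the same order as GDF10. FOXL2 did not share it, with medians of 10.3 CPM in HF, 7.03 CPM in LF and 10.3 CPM in CTRL. ANGPT4 and LHFP shared the order of means with GDF10, whereas CXXC5 did not (89.7 CPM in HF, 93.2 CPM in LF and 76.8 CPM in CTRL). Most names came from a list ordered by the difference between LF and CTRL, so a shared order is partly built in.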

How the data were processed

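Reads had been trimmed and mapped with STAR by the authors on assembly ARS-UCD1.2, and the deposited values are whole counts of uniquely mapped reads for each Ensembl gene, not normalized. Versions given by the submitters' processing notes are 2.6.1b of STAR and 1.6.3 of Subread. Which strand was counted is not stated there, nor in the study's methods. Names of 1522 IDs came from the study's tables and supplement. GDF10, INHA and the gene lists were chosen with earlier results of these data known.

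Counts were fitted in R 4.3.3 with edgeR 4.0.16 (TMM scaling, glmQLFit and glmQLFTest, genes kept by filterByExpr with min.count of 10), each comparison of treatments on its own heifers, with Benjamini-Hochberg adjustment over all genes tested and a threshold of 0.05. DESeq2 1.42.0 was an alternative and gave 95% intervals. CPM on the log2 scale used a prior count of 2. Correlations used 100000 permutations or exact enumeration (SciPy 1.17.1). The edgeR and DESeq2 fits of HF against LF were tested on simulated counts.

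Named genes were GDF10 and INHA, listed pathway genes called, at an unadjusted p under 0.05 or among the 3 highest of their role, and the 5 most and 3 least correlated named genes. Intervals of counts cover counting error only. Study replicate, bull and breed came from the study's list of animals. Within-study-replicate, within-breed and within-treatment values and their interaction tests were added after seeing the data. Genes without a protein product, which the study left out, were kept here. Each heifer is 1 animal.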

Additional observations from a re-analysis of the deposited data

Results flagged for a closer look

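GDF10 in heifer LF8, at 8.73 CPM, stood apart from the other 9 LF heifers, the next of which had 4.55 CPM. The gap took 0.508 of the range of the group, above the 95% critical value of Dixon's test for 10 samples, 0.466. On the log2 scale, the share was 0.239, below that value. Groups of both genes were tested this way on CPM, 6 in all. Chance passes about 1 in 20 groups where values are normally distributed. CPM of GDF10 in LF was skewed, with a mean of 2.62 and a median of 1.79, so that rate need not hold here. INHA in the same heifer was 1.77 CPM, within the LF range.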

How the results depend on the processing

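Over 318 values recomputed under alternatives, 313 kept their direction and their side of the threshold, or moved by less than the spread between heifers. This rule is loose, so the count does not show that sizes were stable. Between HF and LF, 0.05 and 0.75 for GDF10 both counted as kept, beside 0.31 in the main fit. Relative to CTRL, GDF10 in LF counted as kept at 0.91 without LF8, beside 1.34. The comparisons with CTRL, which chose the genes, carry no call here, so only their sizes were compared, and nothing is said of whether a call would depend on the tool. Of the other 5, INHA between the heifers of a bull turned from r = −0.09 to 0.54 without the 2 bulls farthest from the median, and GDF10 of HF minus LF was −0.045 in Charolais and 1.66 in Limousin crosses. The correlation of GDF10 and INHA passed an unadjusted threshold at r = 0.44 without LF8 and LF2, and at r = 0.57 on residuals of the smooth muscle mean, which keep the differences between treatments. The cause was not tested.

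With the replicate number as a block, HF against LF was 0.41 for GDF10 (adjusted p = 0.997 by edgeR) and 0.29 for INHA (adjusted p = 0.980 by edgeR), and no call changed. The replicate block left HF against CTRL at 1.16 and 0.80, without HF9 and HF10, which have no CTRL partner, and LF against CTRL at 1.26 and 0.65. Heifers of the same number were not regularly alike. Deviations were correlated above 0.1 in 5 of 10 pairs of HF and LF heifers. This held for 5 of 8 pairs of HF and CTRL and 4 of 8 of LF and CTRL heifers. The same number also crossed study replicates, since CTRL5 was in study replicate 2 and HF5 and LF5 in study replicate 1.

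Leaving out each heifer in turn gave ranges between HF and LF of 0.05 to 0.75 for GDF10 and 0.21 to 0.39 for INHA. Between study replicates, they were 0.49 to 0.94 and 0.14 to 0.29, and between breeds 0.07 (without HF9) to 0.61 (without HF10) and −0.28 to −0.07 (without CTRL7).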
